A study of Mus musculus with 16 samples.

Results

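Transcripts of 10 genes for basement membrane proteins were followed in cultures of stromal cells from mouse bone marrow, which can become bone-forming cells and mineralize their matrix when given phosphate and ascorbic acid. They are the nidogens Nid1 and Nid2, the laminin chains Lama2, Lama4, Lamb1 and Lamc1, the netrin Ntn4, the collagen IV chains Col4a1 and Col4a2, and the proteoglycan Hspg2. The genes were taken by symbol from the count table, which lists 45796 genes, and all 10 were among the 16430 that had enough counts to be tested. Bulk RNA sequencing gave 16 libraries, with 4 for each of 4 genotypes, after 21 days of culture, in medium that held ascorbic acid at 50 µg/ml and beta-glycerophosphate at 10 mM.

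WT cells were Dmp1+/+ Fgf23 fl/fl without Cre, and Fgf23cKO cells were Dmp1+/+ Fgf23 fl/fl with the Dmp1-cre transgene. Dmp1KO cells were Dmp1-/- Fgf23 fl/fl without Cre, and Dmp1KO/Fgf23cKO cells were Dmp1-/- Fgf23 fl/fl with Dmp1-cre. The controls thus also carry floxed Fgf23 alleles, and the Dmp1 deletion is global. Cre is driven by the Dmp1 promoter, which is active in mature osteoblasts and osteocytes. In these libraries an effect of Cre itself and of Fgf23 deletion cannot be told apart. For mice with Dmp1-cre but no floxed Fgf23, the paper reports a similar phenotype and proposes that Cre did not cause the changes in the animals. The donors were adult male C57BL/6J littermates. Dmp1 encodes a phosphorylated matrix protein of osteocytes, Fgf23 encodes a bone-made hormone that lowers blood phosphate, and the design asks which changes in Dmp1KO cells depend on FGF23.

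Basement membranes are thin sheets of matrix on which epithelium, endothelium, muscle and nerve sheath rest. Laminins are trimers of an alpha, a beta and a gamma chain that assemble into one network, collagen IV forms a second, covalently linked network, and nidogens and perlecan, the product of Hspg2, bridge them. Netrin-4 binds the laminin gamma 1 chain and can open the laminin network. Stromal cells of bone marrow also make these proteins, where they surround vessels and adipocytes.

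Expected counts summed to 61.9 M to 79.5 M per library. Levels are given as CPM (counts scaled to a common library total, with TMM factors), changes as log2 differences from an edgeR quasi-likelihood fit with their SE, and a gene was called at a Benjamini-Hochberg adjusted p under 0.05 over all 16430 genes. Fgf23 was lower in both genotypes with Cre, at 0.817 ± 0.189 CPM in WT, 0.0306 ± 0.0209 in Fgf23cKO, 3.69 ± 1.88 in Dmp1KO and 0.0611 ± 0.0302 in Dmp1KO/Fgf23cKO (SD, n = 4). Dmp1 stood at 504 ± 207 CPM in WT, 1089.9 ± 408 in Fgf23cKO, 94.3 ± 12.9 in Dmp1KO and 68.3 ± 30.0 in Dmp1KO/Fgf23cKO, so it was lower in every Dmp1-/- library than in any other, yet reads were still counted to the gene. The 4 libraries of Dmp1KO/Fgf23cKO were divided. Along the first principal component of all tested genes (38.2% of variance) its library 2 stood at -36.8, within WT (-48.0 to -31.0). Library 1, at -30.0, lay between WT and Fgf23cKO (-28.8 to -17.9). Libraries 3 and 4 stood at 70.8 and 58.9, beyond Dmp1KO (38.8 to 57.8). Means of that genotype therefore cover unlike libraries, and its values are given one by one.

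Hspg2 was the most abundant of the 10 transcripts per length and Lama2 the least. In WT cells Hspg2 stood at 66.4 ± 2.85 CPM per kilobase of exon (SD, n = 4), Col4a1 at 42.6 ± 9.76, Col4a2 at 34.9 ± 6.86, Nid1 at 32.8 ± 12.5 and Lamb1 at 24.2 ± 3.30. Nid2 (14.7 ± 2.58), Lamc1 (14.1 ± 1.20) and Lama4 (11.8 ± 2.08) followed, and Ntn4 (2.53 ± 0.262) and Lama2 (0.378 ± 0.0732) were far lower. Neighbours in this order overlapped between libraries except at 4 steps, namely Hspg2 above Col4a1, Lamb1 above Nid2, Lama4 above Ntn4 and Ntn4 above Lama2. Over all 16 libraries the highest value was 1.34 times the lowest for Lamc1, 1.91 times for Hspg2, 2.01 times for Lama4, 9.99 times for Ntn4, 13.9 times for Nid1 and 19.5 times for Lama2.

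**Figure D1:**
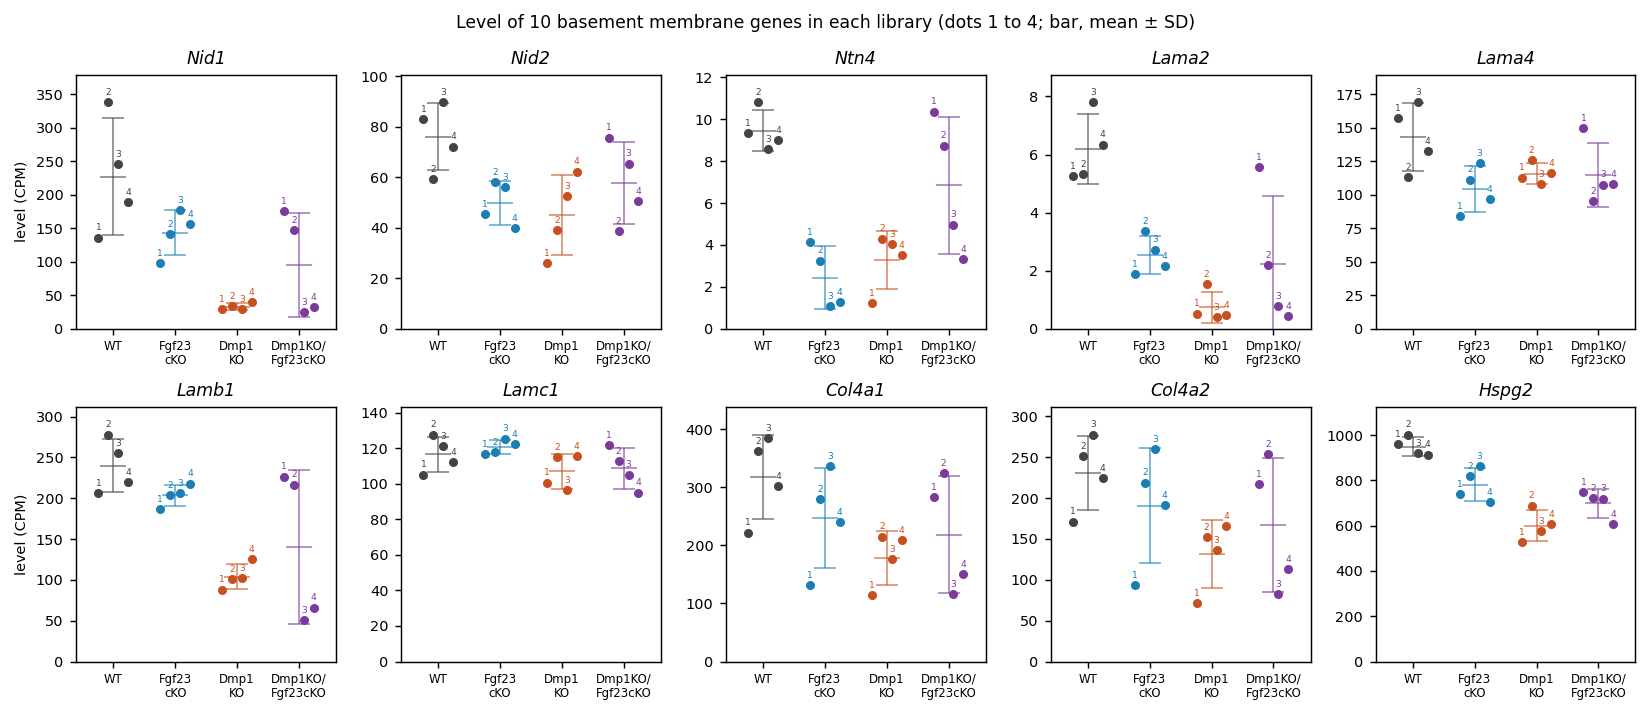
Level in CPM (y axis, linear, from 0) of each of the 10 genes in the 4 genotypes (x axis). Dots are libraries 1 to 4 and bars the mean ± SD; the lower SD bar of Lama2 in Dmp1KO/Fgf23cKO is cut at 0. Nid1 in Dmp1KO lies between 29.1 and 39.2 CPM, below all 4 WT libraries, whereas Lamc1 stays between 95.0 and 128 CPM in all 16.

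In Dmp1KO cells 6 of the 10 transcripts were lower than in WT and 0 higher. Nid1, Nid2, Ntn4, Lama2, Lamb1 and Hspg2 were called lower in Dmp1KO against WT, where 15.8% of all tested genes were called lower and 18.0% higher. The median log2 change was -0.82 over the 10 genes and -0.016 over all tested genes. For 7 of them, those called without Nid2 and with Col4a1 and Col4a2 added, every Dmp1KO library lay below every WT library, against 19.1% of tested genes. The members were chosen with earlier results of these data known. Counts and medians set beside all tested genes, here and below, are therefore descriptions and not a test of the group. Without the Dmp1KO/Fgf23cKO group in the fit, an alternative chosen after seeing the data, 7 were called. That fit called 6801 of all tested genes, against 5549 in the main fit. In bulk RNA, fewer cells of a type and less RNA per cell cannot be told apart.

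Nid1 (Entrez 18073, chromosome 13, 13437602 to 13512275, plus strand, GRCm38.p6) encodes nidogen-1, which binds laminin gamma 1 and collagen IV. It read 136, 339, 245 and 189 CPM in WT libraries 1 to 4 and 29.5, 34.4, 29.1 and 39.2 CPM in Dmp1KO. The groups were apart, and the spread was narrow in Dmp1KO and broad in WT. The fall was 6.88-fold (log2 -2.78 ± 0.53 SE, edgeR adjusted p = 0.00178) and was called whichever of the 16 libraries was left out. Fgf23cKO libraries read 98.1, 141, 178 and 157 CPM and overlapped WT (log2 -0.67 ± 0.50, adjusted p = 0.429). Dmp1KO/Fgf23cKO libraries read 176, 147, 24.4 and 32.1 CPM, so that libraries 1 and 2 fell within the WT range, library 3 below every Dmp1KO library and library 4 within the Dmp1KO range. The sequence around the start of Nid1 is shown because this member fell most among those above 10 CPM. It runs from 250 bases before to 50 after the start (RefSeq, GRCm38.p6, chr13:13437352-13437651, plus strand), with capitals marking GGGCGG, the GC box bound by Sp family factors.
Nid1 promoter: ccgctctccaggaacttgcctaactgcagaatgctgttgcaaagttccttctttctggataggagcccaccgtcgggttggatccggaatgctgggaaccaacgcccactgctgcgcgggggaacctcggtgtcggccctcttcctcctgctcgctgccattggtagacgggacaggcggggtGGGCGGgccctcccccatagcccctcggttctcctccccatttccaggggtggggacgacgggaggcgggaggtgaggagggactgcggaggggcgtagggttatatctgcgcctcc

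Nid2 (Entrez 18074, chromosome 14, 19751257 to 19811787, plus strand), the second nidogen, changed less than Nid1. Its WT libraries read 82.9, 59.2, 89.8 and 72.0 CPM and its Dmp1KO libraries 26.0, 39, 52.3 and 62.2 CPM. Only Dmp1KO 4 reached into the WT range. The fall was 1.69-fold (log2 -0.76 ± 0.25, edgeR adjusted p = 0.0312), which no longer passed when WT 1, WT 3, WT 4, Dmp1KO 1 or Dmp1KO 2 was dropped (highest adjusted p = 0.0812). In Fgf23cKO it read 45.3, 58.2, 56.1 and 39.9 CPM, all below WT, yet the difference was not called (log2 -0.61 ± 0.25, adjusted p = 0.130). In Dmp1KO/Fgf23cKO it read 75.6, 38.7, 65.4 and 50.6 CPM and overlapped WT and Dmp1KO alike.

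The ratio of both nidogens was lower in Dmp1KO. Nid1 exceeded Nid2 in CPM in every WT library, with ratios of 1.64, 5.72, 2.73 and 2.62, and in every Fgf23cKO library (2.16 to 3.93). In Dmp1KO the ratio was 1.13, 0.880, 0.556 and 0.631, below every WT and Fgf23cKO library. The Dmp1KO/Fgf23cKO libraries gave 2.32, 3.79, 0.373 and 0.634. These ratios, like those of the chains below, are a description within each library without a test.

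Among the laminin chains, Lama2 and Lamb1 were called lower in Dmp1KO and Lama4 and Lamc1 were not. Lama2 (Entrez 16773, chromosome 10, 26981285 to 27617191, minus strand), the alpha 2 chain of muscle and Schwann cell laminins, was scarce throughout. It read 5.26, 5.32, 7.82 and 6.34 CPM in WT and 0.522, 1.53, 0.400 and 0.482 CPM in Dmp1KO, with no overlap. The fall was 8.39-fold (log2 -3.07 ± 0.65, edgeR adjusted p = 0.00310), or 13.2-fold without Dmp1KO 2 (log2 -3.72), and was called in all 16 fits that left a library out. Fgf23cKO libraries read 1.87, 3.36, 2.73 and 2.16 CPM, between both of these groups and clear of each, but the difference from WT was not called (log2 -1.29 ± 0.60, adjusted p = 0.179). It was called without the Dmp1KO/Fgf23cKO group (adjusted p = 0.0233), whose libraries read 5.57, 2.18, 0.783 and 0.443 CPM.

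Lamb1 (Entrez 16777, chromosome 12, 31265146 to 31329644, plus strand), the beta 1 chain shared by many laminins, read 206, 278, 255 and 220.1 CPM in WT and 88.2, 101, 102 and 125 CPM in Dmp1KO. The groups did not overlap. The fall was 2.31-fold (log2 -1.21 ± 0.37, edgeR adjusted p = 0.0228), and dropping WT 2, Dmp1KO 1, Dmp1KO 2 or Dmp1KO 3 took it past the threshold (highest adjusted p = 0.0535). The error in that fit includes the Dmp1KO/Fgf23cKO libraries, which read 227, 217, 50.6 and 66.1 CPM, and without that group the adjusted p was 5.28e-06 with an SE of 0.11. Fgf23cKO libraries lay at 187, 204, 206 and 218 CPM, overlapping WT (log2 -0.24 ± 0.36, adjusted p = 0.730).

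Lama4 and Lamc1 were not called in any contrast of the main fit. Lama4 (Entrez 16775, chromosome 10, 38965515 to 39110188, plus strand), the alpha 4 chain of endothelial and mesenchymal laminins, read 157, 113, 169 and 133 CPM in WT and 113, 126, 108 and 116 CPM in Dmp1KO (log2 -0.31 ± 0.15, edgeR adjusted p = 0.127). In Fgf23cKO it read 84.0, 111, 124 and 96.8 CPM (log2 -0.46 ± 0.15, adjusted p = 0.0599), a difference that was called without WT 2, Fgf23cKO 3, Dmp1KO/Fgf23cKO 1 or Dmp1KO/Fgf23cKO 2 (adjusted p down to 0.0302). DESeq2 also called it (adjusted p = 0.0309), as did edgeR without the Dmp1KO/Fgf23cKO group (adjusted p = 0.0284). Dmp1KO/Fgf23cKO libraries of Lama4 read 149.6, 95.0, 108 and 108 CPM and overlapped WT (edgeR adjusted p = 0.190). Lamc1 (Entrez 226519, chromosome 1, 153218922 to 153332786, minus strand), the gamma 1 chain that nidogen-1 and netrin-4 bind, read 105, 128, 121 and 112 CPM in WT and 101, 115, 96.5 and 116 CPM in Dmp1KO (log2 -0.12 ± 0.086, adjusted p = 0.279). Its Fgf23cKO and Dmp1KO/Fgf23cKO libraries spanned 117 to 125 and 95.0 to 122 CPM, and neither differed from WT by a call (adjusted p of 0.765 and 0.476).

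The ratio of the beta 1 to the gamma 1 transcript was 2.05 ± 0.107 in WT (1.96 to 2.18), 1.69 ± 0.0822 in Fgf23cKO (1.60 to 1.79) and 0.972 ± 0.112 in Dmp1KO (0.875 to 1.08), with no overlap among these groups. Libraries 1 to 4 of Dmp1KO/Fgf23cKO gave 1.86, 1.92, 0.481 and 0.696, so none of them fell within the range of another genotype. The Lama2 to Lama4 ratio was 0.0335 to 0.0478 in WT, 0.0221 to 0.0302 in Fgf23cKO and 0.00371 to 0.0122 in Dmp1KO, likewise without overlap. Dmp1KO/Fgf23cKO libraries 1 to 4 gave 0.0372, 0.0229, 0.00728 and 0.00411.

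**Figure D2:**
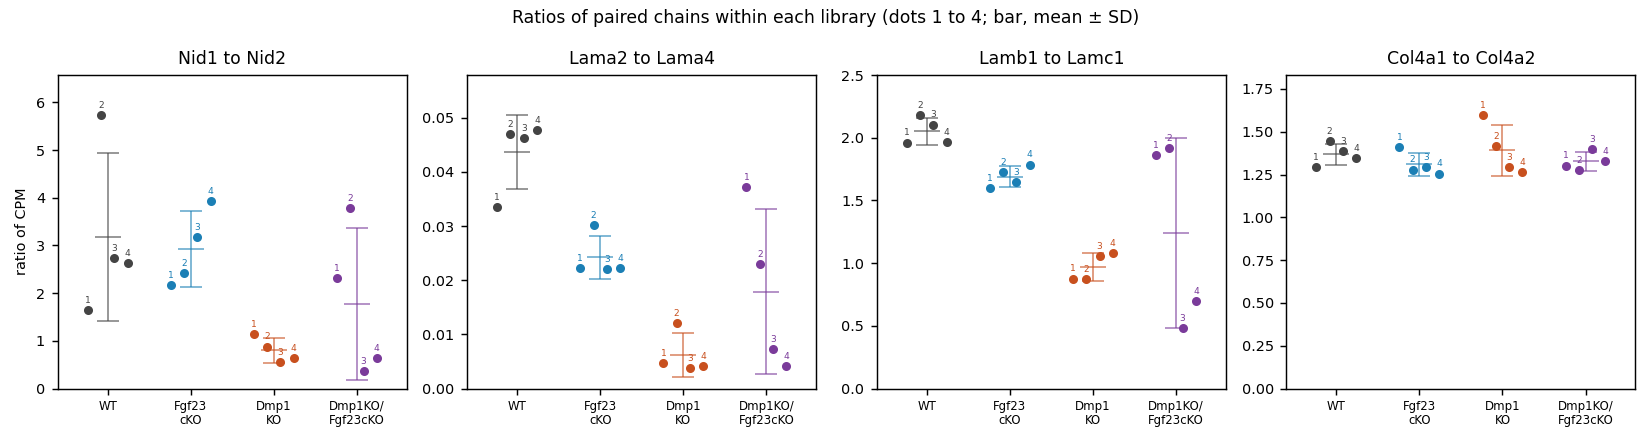
Ratio of CPM (y axis, linear, from 0) of paired chains within each library, by genotype (x axis). Dots are libraries 1 to 4 and bars the mean ± SD. The Lamb1 to Lamc1 ratio is 1.96 to 2.18 in WT and 0.875 to 1.08 in Dmp1KO, while Col4a1 to Col4a2 lies between 1.26 and 1.60 in all 16 libraries.

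Ntn4 was called lower in both single mutants. This gene (Entrez 57764, chromosome 10, 93641049 to 93745972, plus strand) for netrin-4 read 9.35, 10.8, 8.58 and 9.03 CPM in WT, with little spread. Fgf23cKO libraries read 4.14, 3.25, 1.09 and 1.27 CPM and Dmp1KO libraries 1.23, 4.31, 4.03 and 3.53 CPM. Both groups lay below every WT library and overlapped each other. The fall was 3.87-fold in Fgf23cKO (log2 -1.95 ± 0.47, edgeR adjusted p = 0.0159, 0.0507 without Fgf23cKO 4) and 2.88-fold in Dmp1KO (log2 -1.53 ± 0.46, adjusted p = 0.0210, called in all 16 fits that left a library out). Both comparisons share the WT libraries. Dmp1KO/Fgf23cKO libraries read 10.4, 8.74, 4.97 and 3.32 CPM, with libraries 1 and 2 in the WT range, and did not differ from WT by a call (log2 -0.46 ± 0.45, adjusted p = 0.540).

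The change on Fgf23 deletion was therefore compared between cells without and with Dmp1. This interaction was 3.02 ± 0.66 on the log2 scale for Ntn4 (edgeR adjusted p = 0.0150, at most 0.0346 without any 1 library). Fgf23 deletion went with a log2 change of 1.07 ± 0.46 in Dmp1KO cells and of -1.95 in Dmp1-intact cells. The first of these did not pass by itself (edgeR adjusted p = 0.342). The start of Ntn4 is shown as the member with the largest interaction (RefSeq, GRCm38.p6, chr10:93640799-93641098, plus strand), with GGGCGG on either strand in capitals.
Ntn4 promoter: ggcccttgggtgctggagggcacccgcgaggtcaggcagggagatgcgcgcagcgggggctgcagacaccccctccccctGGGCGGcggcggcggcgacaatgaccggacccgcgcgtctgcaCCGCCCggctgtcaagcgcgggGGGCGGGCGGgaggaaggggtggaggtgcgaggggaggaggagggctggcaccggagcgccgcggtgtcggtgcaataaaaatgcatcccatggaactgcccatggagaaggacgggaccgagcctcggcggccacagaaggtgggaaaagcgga

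The collagen IV chains had like patterns over the libraries and were not called. Col4a1 (Entrez 12826, chromosome 8, 11198423 to 11312889, minus strand) and Col4a2 (Entrez 12827, chromosome 8, 11312805 to 11449287, plus strand) encode the chains of the most widespread collagen IV trimer. Col4a1 read 222, 362, 385 and 302 CPM in WT and 114, 215, 176 and 209 CPM in Dmp1KO (log2 -0.83 ± 0.34, edgeR adjusted p = 0.0711). Col4a2 read 171, 251, 278 and 224 CPM in WT and 71.3, 152, 136 and 165 CPM in Dmp1KO (log2 -0.82 ± 0.37, adjusted p = 0.0998). All Dmp1KO libraries lay below all WT libraries for both chains. DESeq2 called both (adjusted p of 0.0267 and 0.0453), as did edgeR on the libraries of these 2 genotypes alone (0.0133 and 0.0226), and Col4a1 was also called without Fgf23cKO 1 or Dmp1KO/Fgf23cKO 3.

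In Fgf23cKO the Col4a1 values were 132, 279.9, 336 and 239.8 CPM and overlapped WT (log2 -0.36 ± 0.34, edgeR adjusted p = 0.536), and those of Col4a2 were 93.3, 219, 260.0 and 191 CPM (log2 -0.28 ± 0.37, adjusted p = 0.681). Library 1 was the lowest for both. Dmp1KO/Fgf23cKO libraries read 283, 324, 116 and 150.3 CPM for Col4a1 and 217, 254, 82.7 and 113 CPM for Col4a2, again with libraries 3 and 4 low. Centred log2 levels of both chains differed by a root mean square of 0.089 over the 16 libraries, against a spread of 0.56 for Col4a1, the smallest difference between any 2 of the 10 genes. The points share libraries and depth, and no p is given.

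Both genes start from opposite strands of one short stretch, which is shown because their levels ran in parallel. RefSeq windows of 300 bases around their starts share 78 bases (GRCm38.p6, chr8:11312777-11312854, plus strand). Capitals mark the 22 bases from the start of Col4a2 (11312805) to the start of Col4a1 used there (11312826), which both transcripts cover. Of the 10 genes, 7 had a window in the RefSeq table, and Nid2, Lama4 and Lamc1 are named only.
Col4a1 and Col4a2 shared stretch: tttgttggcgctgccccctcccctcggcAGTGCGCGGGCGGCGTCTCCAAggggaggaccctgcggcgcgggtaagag
Searched on both strands, GGGCGG was in all 7 windows and in 35.7% of the 32851 windows of the table, CCAAT in 4 of 7 and 37.4%, TATAAA in 0 of 7 and 13.6%, and TGANTCA, the AP-1 motif, in 0 of 7 and 7.81%. CCAAT was found at Nid1, Lamb1, Col4a1 and Col4a2. These are matches of letters and were not tested for binding. Col4a1 and Col4a2 share part of the window, so their matches are not separate.

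Hspg2 (Entrez 15530, chromosome 4, 137468751 to 137570630, plus strand) had the smallest change and the smallest adjusted p of the members called in Dmp1KO. It encodes perlecan, the large heparan sulfate proteoglycan of basement membranes and cartilage. WT libraries read 959.9, 1003, 922 and 914 CPM, Fgf23cKO 738, 817, 864 and 706, Dmp1KO 526, 689, 574 and 607, and Dmp1KO/Fgf23cKO 748, 722, 719.6 and 606 CPM. Each mutant lay wholly below WT. Fgf23cKO also lay wholly above Dmp1KO, and Dmp1KO/Fgf23cKO overlapped both. The fall was 1.59-fold in Dmp1KO (log2 -0.66 ± 0.099, edgeR adjusted p = 0.00030) and 1.36-fold in Dmp1KO/Fgf23cKO (log2 -0.44 ± 0.099, adjusted p = 0.0106), both called in all 16 fits that left a library out. In Fgf23cKO the log2 change of -0.28 ± 0.099 was not called (adjusted p = 0.0773). Unlike Nid1 or Lamb1, Hspg2 did not divide the Dmp1KO/Fgf23cKO libraries, of which 1 to 3 lay within 719.6 to 748 CPM.

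Fgf23 deletion alone called only Ntn4. In Fgf23cKO against WT 1 of 10 genes was lower and 0 higher, where 4.72% of tested genes were lower and 6.68% higher. The median log2 change was -0.41, against -0.013 over all tested genes. Nid2, Ntn4, Lama2 and Hspg2 lay wholly below WT, 4 of 10 against 12.0% of tested genes. The count of called members was 3 with DESeq2 (Ntn4, Lama4 and Hspg2), 4 with the libraries of both genotypes alone (Nid2, Ntn4, Lama2 and Hspg2), 3 without the Dmp1KO/Fgf23cKO group (Ntn4, Lama2 and Lama4), and 0 without Fgf23cKO 4. Over all tested genes the main fit called 1873, DESeq2 2687, the fit on both genotypes alone 3474 and that without the Dmp1KO/Fgf23cKO group 2930.

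With both genes deleted, only Hspg2 was called against WT. The count was 1 of 10 lower and 0 higher, against 3.63% and 7.72% of tested genes, and Hspg2 was also the 1 member without overlap, against 7.89%. The log2 changes of the other 9 ran from -1.45 (Lama2, adjusted p = 0.131) and -1.26 (Nid1, adjusted p = 0.121) to -0.10 (Lamc1, adjusted p = 0.476) in edgeR. Without Dmp1KO/Fgf23cKO 1, Nid1 (log2 -1.75, adjusted p = 0.0390), Lama2 (log2 -2.43, adjusted p = 0.00873) and Lama4 (log2 -0.47, adjusted p = 0.0359) were called as well. Limma called Lama2 too (adjusted p = 0.0399).

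Deleting Fgf23 in cells that already lacked Dmp1 changed no member by a call. Against Dmp1KO, edgeR called 3 of 16430 genes (0.0183%) and 0 of the 10, and 0 of the 10 were apart, against 3.71% of tested genes. DESeq2 and limma called 0 members as well. At an unadjusted p under 0.05 there were 2264 genes and 4 members, namely Nid1, Lama2, Ntn4 and Hspg2. In edgeR the log2 change of Nid1 was 1.52 ± 0.51 (adjusted p = 0.277), that of Lama2 1.62 ± 0.62 (adjusted p = 0.325) and that of Hspg2 0.22 ± 0.099 (adjusted p = 0.344). The value of Lama2 was 0.64 without Dmp1KO/Fgf23cKO 1 and 2.27 without Dmp1KO 2. The median over the 10 was 0.35, and 0.0081 over all tested genes. The divided libraries of this genotype enter each of these errors.

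The interaction was called for Ntn4 and for Hspg2, 2 of 10 higher and 0 lower, where 2.90% of tested genes were higher and 4.72% lower. For Hspg2 it was 0.50 ± 0.14 (edgeR adjusted p = 0.0411), and it was called in 5 of the 16 fits that left a library out, the adjusted p rising to 0.0888. It was lost without any 1 of the 4 WT libraries, Fgf23cKO 1, 2 or 4, Dmp1KO 3 or 4, or Dmp1KO/Fgf23cKO 1 or 2. Nid1 (2.19 ± 0.72, adjusted p = 0.0758), Lama2 (2.91 ± 0.86, adjusted p = 0.0534) and Nid2 (0.97 ± 0.35, adjusted p = 0.107) missed the threshold, which they passed with DESeq2 (adjusted p of 0.0165, 0.00531 and 0.0450). Lama2 was called without Dmp1KO 2, Dmp1KO/Fgf23cKO 3 or Dmp1KO/Fgf23cKO 4, and Nid1 without either of the last 2. The Lama2 value itself was 1.93 without Dmp1KO/Fgf23cKO 1 and 3.56 without Dmp1KO 2. The median over the members was 0.66, and 0.028 over all tested genes.

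**Figure D3:**
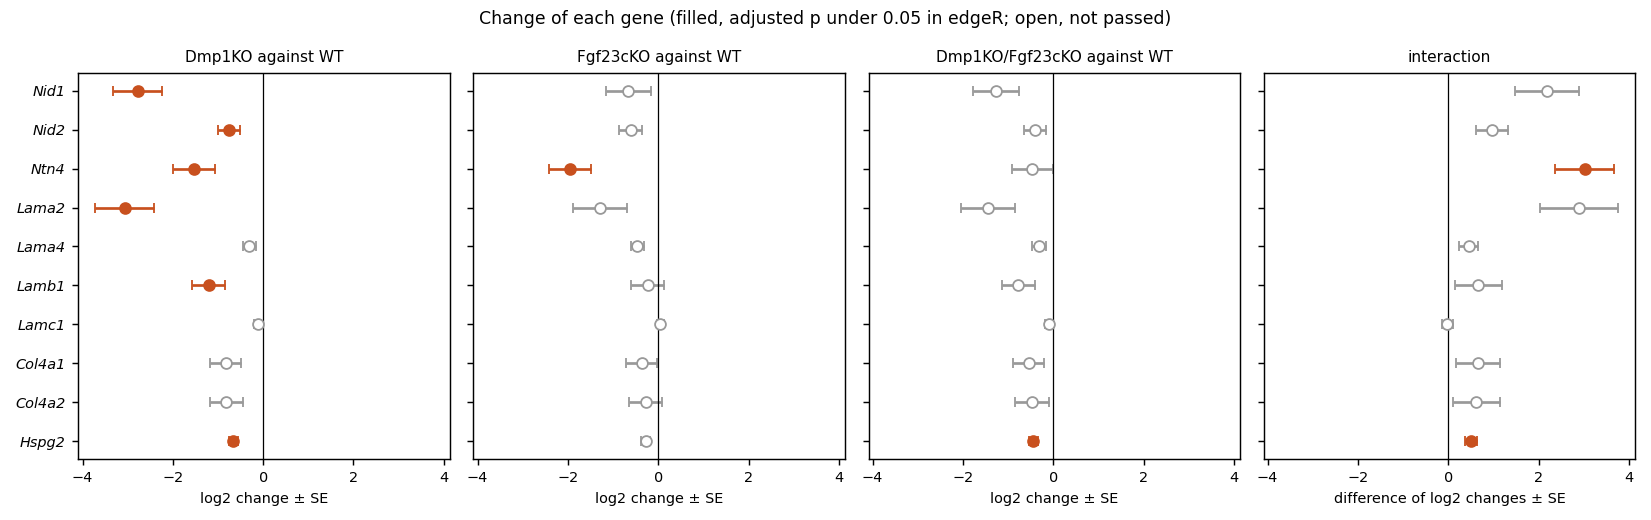
Log2 change with its SE (x axis, same scale in all panels) of each gene (y axis) in each mutant against WT, and the interaction (effect of Fgf23 deletion in Dmp1KO cells minus its effect in Dmp1-intact cells). Filled points passed an adjusted p of 0.05 in edgeR. Against WT, 6 points are filled for Dmp1KO, 1 (Ntn4) for Fgf23cKO and 1 (Hspg2) for Dmp1KO/Fgf23cKO.

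Across libraries the members fell into unlike patterns. Centred log2 levels of Nid1 were nearest to those of Lama2 among the 10 genes, with a root mean square difference of 0.60 over 16 libraries, against a spread of 1.25 for Nid1 and 1.42 for Lama2. Ntn4 was far from all, its nearest member being Nid2 at 0.87 and its farthest Nid1 at 1.32. Among the tested genes with a named symbol, those nearest to Nid1 were Shroom4 (0.27), Cxcr6 (0.35), Lama5 (0.38), Zfpm2 (0.39) and Ltbp2 (0.41). Those nearest to Hspg2, whose spread was 0.27, were Shisa4 (0.094), Pkd1 (0.11), Ttc28 (0.11), Dstn (0.12) and Robo1 (0.12). The measure is a description over libraries that share genotype and depth.

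**Figure D4:**
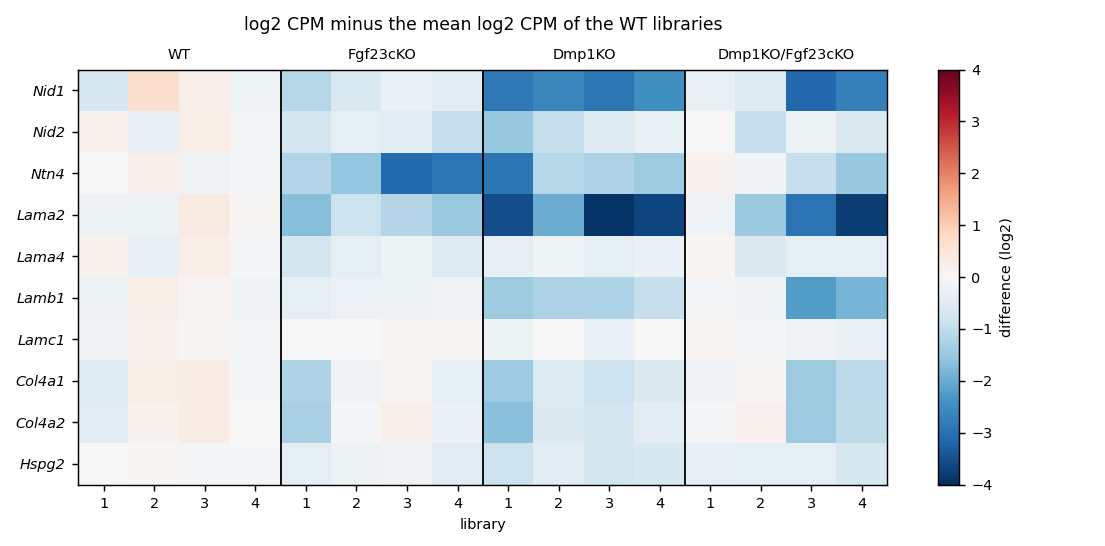
Log2 CPM of each gene (y axis) in each library (x axis, grouped by genotype) minus the mean log2 CPM of the 4 WT libraries (colour, from -4 to 4). For Nid1, Dmp1KO/Fgf23cKO 1 and 2 (176 and 147 CPM) lie near WT and libraries 3 and 4 (24.4 and 32.1 CPM) near Dmp1KO, a division also seen for Lamb1 and both collagen IV chains.

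Among other chains of basement membranes, Lama5, Ntn1 and Ntn3 were called lower in Dmp1KO and Lama1 higher, where 15.8% of all tested genes were lower and 18.0% higher. Lama5, the alpha 5 chain, fell 5.16-fold (log2 -2.37 ± 0.56, edgeR adjusted p = 0.00612), from 27.8, 62, 27.2 and 23.9 CPM to 8.18, 7.52, 5.83 and 5.77 CPM. Its Dmp1KO/Fgf23cKO libraries read 30.9, 41.2, 5.60 and 6.47 CPM, as divided as those of Nid1. Ntn3 and Ntn1, secreted netrins, fell 2.52-fold (adjusted p = 0.00266) and 1.76-fold (adjusted p = 0.00382). In Fgf23cKO, in Dmp1KO/Fgf23cKO and in the interaction 0 of the 18 other chains tested were called. Of all tested genes, 4.72%, 3.63% and 4.72% were lower and 6.68%, 7.72% and 2.90% higher, in the same order.

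Proteins that bind to basement membranes were lower in Dmp1KO for 7 of 14 tested genes (Smoc1, Smoc2, Fbln1, Fbln2, Hmcn1, Tinagl1 and Efemp1) and higher for Sparc, with a median of -1.0. Over all tested genes 15.8% were lower and 18.0% higher. Efemp1 (fibulin-3) fell 8.01-fold (log2 -3.00 ± 0.70, edgeR adjusted p = 0.00572) and Smoc2, a calcium-binding matrix protein, 2.97-fold (adjusted p = 0.00874). Tinagl1, a matrix glycoprotein, fell by log2 -3.68 (adjusted p = 0.00362), but its WT libraries read 1.53, 23.9, 2.20 and 2.69 CPM, and without WT 2 the log2 change was -1.86. Efemp1 was also lower in Fgf23cKO (log2 -2.59 ± 0.68, adjusted p = 0.0253), which was lost on dropping WT 1, WT 3, WT 4 or any 1 Fgf23cKO library (highest adjusted p = 0.0682). The interaction of Efemp1 was 4.12 ± 0.96 (adjusted p = 0.0210), or 2.67 without Dmp1KO/Fgf23cKO 1, its libraries in that genotype reading 8.77, 1.59, 1.06 and 0.647 CPM. Tinagl1 was called in both other mutants (adjusted p of 0.0406 and 0.0498) and in the interaction (0.0424). Without WT 2 its log2 changes were -0.71 and -0.58 in those mutants, and neither remained called, while the interaction was 1.98. Over the 16 fits that left a library out, these calls ended in 7, 14 and 10 fits.

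Receptors for laminin, collagen and netrin had 5 of 21 tested genes lower in Dmp1KO (Itga1, Itgb4, Bcam, Ddr1 and Dcc) and 0 higher, with a median of -0.17, where 15.8% of all tested genes were lower and 18.0% higher. Without the Dmp1KO/Fgf23cKO group 7 were lower and 2 higher, in a fit that called 6801 genes and not 5549. Bcam, a receptor of laminin alpha 5, fell 1.92-fold (log2 -0.94 ± 0.22, edgeR adjusted p = 0.00561). Ddr1, a collagen receptor kinase, fell 1.36-fold (adjusted p = 0.00832), and Dcc, a netrin receptor, 3.50-fold (adjusted p = 0.00650) at levels under 1 CPM on average. Bcam was also called in Dmp1KO/Fgf23cKO (log2 -0.76 ± 0.22, adjusted p = 0.0371), lost on dropping WT 1, 3 or 4 or Dmp1KO/Fgf23cKO 3 or 4 (highest adjusted p = 0.117). Sdc4, a heparan sulfate proteoglycan of the cell surface, was the 1 receptor called in Fgf23cKO and rose 1.51-fold (log2 0.59 ± 0.11, adjusted p = 0.00404). Of all tested genes 6.68% were higher and 4.72% lower in that contrast. Without the Dmp1KO/Fgf23cKO group 2 receptors were higher and 2 lower in Fgf23cKO. The same change of fit moved the Fgf23cKO counts from 1 to 3 higher among the collagen IV folding genes, from 2 higher and 0 lower to 3 and 2 among the proteases and inhibitors, and from 0 higher and 2 lower to 1 and 3 among the binding proteins. Over all tested genes it raised the number called in Fgf23cKO from 1873 to 2930. In the interaction Dcc (2.57 ± 0.61, adjusted p = 0.0207) and Unc5a, a second netrin receptor (1.45 ± 0.41, adjusted p = 0.0422), were higher. The call of Unc5a ended in 12 of the 16 fits that left a library out, those without any 1 WT or Dmp1KO library, Fgf23cKO 1 or 2, or Dmp1KO/Fgf23cKO 1 or 2 (adjusted p up to 0.0836).

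Among genes that fold, export and crosslink collagen IV, 8 of 13 in Dmp1KO were higher (P4ha1, P4ha2, P4hb, Plod1, P3h1, P3h2, Serpinh1 and Mia3) and 2 lower (Pxdn and Loxl2), with a median of 0.57, against 18.0% higher and 15.8% lower of all tested genes. Most of them also serve collagen I and other collagens. Plod1, a lysyl hydroxylase, rose 1.61-fold in Dmp1KO (log2 0.69 ± 0.067, edgeR adjusted p = 1.85e-05), 1.73-fold in Fgf23cKO (adjusted p = 1.78e-05) and 1.65-fold in Dmp1KO/Fgf23cKO (adjusted p = 3.36e-05). Its interaction was -0.76 ± 0.094 (adjusted p = 0.00131). P4ha2 and P4hb, subunits of prolyl 4-hydroxylase, rose 1.98-fold and 1.56-fold in Dmp1KO (adjusted p of 0.00392 and 0.00581). Mia3, which loads collagen for export, was higher in Dmp1KO/Fgf23cKO (log2 0.55 ± 0.16, adjusted p = 0.0361), lost on dropping any 1 WT library, Fgf23cKO 2, or Dmp1KO/Fgf23cKO 3 or 4 (highest adjusted p = 0.119).

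Proteases and their inhibitors moved both ways. In Dmp1KO 4 of 21 were lower (Mmp19, Adamts5, Plau and Timp2) and 2 higher (Ctsl and Timp1), with a median of -0.32 and against 15.8% lower and 18.0% higher of all tested genes. Without the Dmp1KO/Fgf23cKO group 9 were lower, in a fit that called 6801 genes and not 5549. Timp1, an inhibitor of matrix metalloproteinases, rose from 513 ± 13.0 CPM (SD, n = 4) to 1194 ± 286 CPM in Dmp1KO (log2 1.22 ± 0.15, edgeR adjusted p = 7.39e-05). It rose 2.05-fold in Fgf23cKO (adjusted p = 0.000864) and 1.85-fold in Dmp1KO/Fgf23cKO (adjusted p = 0.00171), and its interaction was -1.37 ± 0.21 (adjusted p = 0.00280). Ctsl (cathepsin L) rose 1.82-fold in Dmp1KO (adjusted p = 0.00376) and 1.98-fold in Dmp1KO/Fgf23cKO (adjusted p = 0.00481). In Fgf23cKO its rise of 1.59-fold (adjusted p = 0.0339) was not called without WT 1, 3 or 4 or any 1 Fgf23cKO library (adjusted p up to 0.104). Adamts5, an aggrecanase, fell 2.10-fold in Dmp1KO (adjusted p = 0.00572). Hpse, the heparanase that cuts heparan sulfate chains, rose 3.06-fold in Dmp1KO/Fgf23cKO (adjusted p = 0.0151, 0.0538 without WT 4).

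Some lists of cell type markers differed between Dmp1KO and WT, where 15.8% of all tested genes were called lower and 18.0% higher. Summed smooth muscle and pericyte markers (12 genes) were 1444 to 2026 CPM in WT, 859 to 1780 in Fgf23cKO, 617 to 1296 in Dmp1KO and 883 to 1794 in Dmp1KO/Fgf23cKO, with 6 of 12 lower and Cspg4 higher in Dmp1KO. The largest part was Acta2, at 873 ± 135 CPM in WT and 508 ± 214 in Dmp1KO (SD, n = 4). Acta2 was not called there (edgeR adjusted p = 0.129). Stromal progenitor markers (14 genes) summed to 884 to 1214, 742 to 906, 523 to 653 and 504 to 1282 CPM in the order WT, Fgf23cKO, Dmp1KO and Dmp1KO/Fgf23cKO, with 6 lower and 1 higher in Dmp1KO. Pdgfrb, which is also in the list before, and Cxcl12 were the largest parts of this sum in WT. Osteoblast and osteocyte markers (12 genes) summed to 36782 to 60688, 62161 to 74046, 93211 to 100531 and 40020 to 143471 CPM, again in that order. In Dmp1KO 5 were higher (Sp7, Alpl, Col1a1, Bglap and Phospho1) and 1, Dmp1 itself, lower, while Runx2, Ibsp, Spp1, Phex, Mepe and Sost were not called. Most of this sum was Col1a1, at 33054 ± 7833 CPM in WT and 78767 ± 4929 CPM in Dmp1KO (SD, n = 4). Dmp1KO/Fgf23cKO libraries 1 to 4 of Col1a1 read 31935, 25572, 125558 and 90710 CPM. Schwann cell markers (9 genes, 3 lower) ran from 71.5 to 117 CPM in WT, and from 47 to 73.1 CPM in Dmp1KO. Macrophage markers (10 genes, 3 lower) summed to 8453 to 9467 and 6728 to 10550 CPM in these groups. The Schwann cell and macrophage sums overlapped between WT and Dmp1KO. Adipocyte markers (10 genes, 8 tested, 1 lower, 0 higher) had a median log2 change of -1.18, while their sum lay between 147 and 307 CPM for WT and between 335 and 570 CPM for Dmp1KO. That sum followed Lpl, at 190.2 ± 50.8 CPM in WT and 405 ± 114 CPM in Dmp1KO (SD, n = 4), which was not called (edgeR adjusted p = 0.0650). The part of these shifts in the results on the 10 genes was not tested. Endothelial markers (12 genes, 8 tested) summed to 3.91 to 11.1 CPM over all 16 libraries, and 10 of the 12 were under 1 CPM on average in each genotype. Kdr was called higher in Dmp1KO (log2 1.48 ± 0.31, edgeR adjusted p = 0.00289) and in Dmp1KO/Fgf23cKO, and 0 were called lower in either. Cldn5 and Robo4 were at 0 in all 4 WT libraries, where a count of 0 still allows an expected value of up to 3 counts in a library.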

How the data were processed

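RNA of 16 libraries of bone marrow stromal cells was sequenced by the authors (TruSeq Total RNA kit, 50 bp paired reads, Illumina NovaSeq) and mapped in StrandNGS to the genome (mm10, per the labels) and transcriptome of the mouse. For StrandNGS the version, the gene annotation and whether strand was used were not given in the sources used here. Expected counts of each gene were deposited, of which 33.4% of values are not whole, along with log2 values that the authors normalized with DESeq and set to the median of each gene. Deposited columns with the authors' own fold changes and p-values were not used. Without strand, reads of Col4a1 and Col4a2 where they overlap, of Nid2 and Rtraf, and of Nid1, Ntn4, Lama2, Lamc1, Col4a1 or Col4a2 and their antisense genes cannot be told apart.

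Expected counts were rounded and tested with edgeR 4.0.16 in R 4.3.3 (quasi-likelihood F test, TMM, filterByExpr with minimum count 10 and total 15) in 1 fit of 16 libraries with a mean per genotype and 5 contrasts, with Benjamini-Hochberg adjustment over 16430 genes. The script was tested on simulated data. Alternatives were RLE scaling, DESeq2 1.42.0, no filter, the compared libraries alone, limma 3.58.1 on the deposited log2 values, each library left out and, chosen after seeing the data, the fit without the Dmp1KO/Fgf23cKO group. The members, lists and tests were chosen with earlier results of these data known. All 10 members are named. From each other list at most 3 called genes per contrast, those with the smallest adjusted p, are given with values. A result among the other chains is not reported here. The 5 genes nearest to Nid1 and to Hspg2 are those with the smallest root mean square difference of centred log2 CPM. Predicted genes, clone names, pseudogenes and mitochondrially encoded genes were left out of that ranking. Library totals were 61.9 M to 79.5 M, and no pair of replicates came near sampling noise (lowest chi-square per gene 25.7). Nothing in the labels says that libraries of a genotype came from separate cultures or animals, and the methods describe fewer animals than libraries for each genotype, so the p-values cover only how far these libraries differ, and that spread may be technical. Positions and start windows are RefSeq (GRCm38.p6) and lengths are exon unions of GENCODE M21.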

Additional observations from a re-analysis of the deposited data

Results flagged for a closer look

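Ntn4 stood out in a single Dmp1KO library. Dmp1KO 1 was the lowest of its group on the log2 scale, at 1.23 CPM against 3.53 to 4.31 CPM in the others, and its gap to the nearest library took 0.839 of the whole range, above Dixon's critical value for 4 libraries. The 10 genes in 4 genotypes gave 40 such groups, and chance marks about 1 in 20. The call of Ntn4 in Dmp1KO against WT held without that library.

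The change on Fgf23 deletion differed between cells without and with Dmp1 for Ntn4 by 3.02 on the log2 scale (edgeR adjusted p = 0.0150) and for Hspg2 by 0.50 (adjusted p = 0.0411). The difference for Ntn4 was called in all 16 fits that left a library out and that for Hspg2 in 5 of them.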

How the results depend on the processing

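In Dmp1KO against WT the count of called members was 6 to 8 under all alternatives with 16 libraries or fewer groups, and 4 to 7 with a library left out. Genes called there were 5549, but 6336 with DESeq2, 6735 with the compared libraries alone and 6801 without the Dmp1KO/Fgf23cKO group. Leaving a library out gave 4091 to 6062, and no filter on low counts 5000. Under RLE scaling every member kept its direction and call in the 5 contrasts. In Fgf23cKO against WT called members numbered 3 with DESeq2, 4 with the compared libraries alone, 3 without the Dmp1KO/Fgf23cKO group and 0 to 2 with a library left out, and genes called were 1873, but 3474 with the compared libraries alone, 2930 without that group and 994 to 2186 with a library left out. In Dmp1KO/Fgf23cKO against WT limma called 2 members and 1 to 4 were called with a library left out, and genes called were 1864, but 1190 with the compared libraries alone and 953 to 3019 with a library left out. Against Dmp1KO genes called were 3, but 182 with DESeq2 and 1 to 234 with a library left out. For the interaction members called were 5 with DESeq2, 1 without a filter on low counts and 1 to 4 with a library left out, and genes called were 1252, but 2110 with DESeq2 and 595 to 2012 with a library left out. The fits on fewer groups hold fewer libraries and estimate their error without the libraries left out, and the cause of these shifts was not tested. Changes near 0 turned direction only with a library left out, namely Lama4 in Dmp1KO/Fgf23cKO against Dmp1KO (-0.16 to 0.072), Lamc1 there (-0.037 to 0.081) and Lamc1 in the interaction (-0.086 to 0.032). No paired analysis was possible because replicate numbers follow the order of listing and link no libraries across genotypes. Lama2 and Ntn4 had the lowest levels of the members, and how far depth limits their precision was not measured.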
